A study of Mus musculus with 16 samples.

Results

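The genes described here are 10 genes of the cellular response to low oxygen and of sugar breakdown, Hif1a, Slc2a1, Hk2, Pfkp, Aldoc, Pdk1, Vegfa, Car9, Bnip3 and Egln3. They were chosen by symbol, and all 10 were found among the 18193 genes of the array, with 23 of the 45037 probe sets tested. The cells were CT26, a colon carcinoma line of BALB/c mice, stably transfected with pU6-m3 hairpin vectors and selected with hygromycin. The lines carried hairpins against both thioredoxin reductase 1 and the selenoprotein Sep15 (shTR1/shSep15 cells), against Sep15 alone (shSep15 cells) or against thioredoxin reductase 1 alone (shTR1 cells), or the empty pU6-m3 vector (control cells). Each line gave 4 Affymetrix mouse arrays from 4 different mRNA samples, 16 arrays in all. No source says that these came from separate cultures, so p-values measure the spread between mRNA samples. The paper reports that several independent clones were analysed, but not which of them gave the arrays. The sources used here thus do not say whether the 4 samples of a line came from 1 clone or several. The study asked why the double knockdown undoes effects of the single knockdowns, and the oxygen tension was not part of the design.

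Cells sense oxygen through hypoxia-inducible factor 1, a dimer whose α subunit is the product of Hif1a. When oxygen is plentiful, prolyl hydroxylases such as the Egln3 product mark this subunit for destruction, and when oxygen is short the subunit persists and switches on a shared set of genes. These raise glucose uptake and glycolysis, keep pyruvate from the citric acid cycle, remove mitochondria, buffer acid and call in blood vessels. Tumor cells often run the same program in the presence of oxygen. An array reads mRNA, so the oxygen-dependent control of the HIF-1α protein is not seen in these data.

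The knockdown lines carry short hairpins, and the targeted stretches are shown because they define the lines. They read, 5′ to 3′, with the gene and its mouse chromosome:
Sep15 hairpin target (Selenof, chromosome 3, 19 bases): acagaagagttccatttaa
TR1 hairpin target (Txnrd1, chromosome 10, 22 bases): atcgctctgacaagcttattag

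HIF-1 binds the core letters ACGTG or GCGTG. RefSeq windows of 300 bases, 250 before and 50 after an annotated start (build GRCm38.p6), held at least one of these on either strand for all 10 genes, in 11 of their 13 windows. Of all 32851 mouse windows of that length, 43.8% held one. Below are the windows of Pdk1 (chr2:71872974-71873273, plus strand), Bnip3 (chr7:138909457-138909756, minus strand), Slc2a1 (chr4:119108495-119108794, plus strand) and Hk2 (chr6:82774405-82774704, minus strand), 4 of the genes whose signals moved together in pairs over the arrays. Of windows not printed, one of the 2 of Vegfa and the second of Pdk1 held no match. Capitals mark every match, ACGTG or GCGTG, or CACGT or CACGC where the match is on the other strand, and a CACGTG holds 2 overlapping matches. A match is a run of letters and not a measured binding site.
Pdk1: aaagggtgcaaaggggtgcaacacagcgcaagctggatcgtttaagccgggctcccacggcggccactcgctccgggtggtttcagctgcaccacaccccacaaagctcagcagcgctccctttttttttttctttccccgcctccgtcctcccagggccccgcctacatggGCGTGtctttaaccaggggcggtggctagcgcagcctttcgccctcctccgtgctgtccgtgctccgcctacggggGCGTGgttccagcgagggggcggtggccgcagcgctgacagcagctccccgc
Bnip3: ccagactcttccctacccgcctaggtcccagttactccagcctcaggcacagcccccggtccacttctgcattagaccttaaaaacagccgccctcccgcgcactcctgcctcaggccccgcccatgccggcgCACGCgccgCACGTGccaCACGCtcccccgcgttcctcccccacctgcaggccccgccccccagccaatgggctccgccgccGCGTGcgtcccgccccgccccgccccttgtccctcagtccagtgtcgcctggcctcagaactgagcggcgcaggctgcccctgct
Slc2a1: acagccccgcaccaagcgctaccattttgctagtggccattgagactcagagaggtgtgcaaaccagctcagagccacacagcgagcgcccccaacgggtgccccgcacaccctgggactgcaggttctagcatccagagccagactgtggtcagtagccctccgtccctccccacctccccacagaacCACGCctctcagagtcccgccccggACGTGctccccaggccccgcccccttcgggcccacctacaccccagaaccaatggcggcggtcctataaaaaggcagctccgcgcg
Hk2: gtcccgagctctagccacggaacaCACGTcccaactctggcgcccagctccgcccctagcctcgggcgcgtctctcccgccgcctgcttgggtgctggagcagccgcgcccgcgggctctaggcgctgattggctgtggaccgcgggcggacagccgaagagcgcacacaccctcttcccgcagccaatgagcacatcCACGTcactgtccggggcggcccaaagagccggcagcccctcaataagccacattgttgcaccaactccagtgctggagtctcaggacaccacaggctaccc

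Selenof was at 7.34 to 8.29 in the lines with the Sep15 hairpin and at 10.78 to 12.36 in the others, on the log2 signal scale on which all array values here are given. Txnrd1 was at 7.18 to 7.91 in shTR1/shSep15 cells and at 7.85, 10.57, 7.89 and 9.71 in shTR1 cells, with shTR1 replicates 2 and 4 above the lowest of the control arrays, which lay at 9.45 to 10.39. Control replicate 2 stood apart from the rest. It was the lowest of all 16 arrays in 19.3% of all genes and the highest in 13.0%, its Gapdh 3′ control probe set read 12.1 against 12.7 to 13.3 on the other 15 arrays, and its β-actin control probe sets differed by 0.79 between 3′ and 5′ ends against 0.38 to 0.56. The mean of 9 interferon-induced genes was 4.67 to 5.06 in shTR1/shSep15 cells, 5.89 to 9.90 in shSep15 cells, 5.47 to 9.87 in shTR1 cells and 5.03 to 7.37 in control cells, with control replicate 2 at 7.37. The part of these states in the results was not tested. Of 8 epithelial markers 5 were above 4.52, the median of all probe set means, the exceptions being Cdh1, Krt19 and Vil1, while all 7 fibroblast markers were above it. Of the 7 leukocyte markers 4 were above it, and 1 of 5 endothelial markers. Each sample was a culture of CT26 cells, so these markers are read as genes of that line and not as shares of cell types. Whether a marker was lower in some cells or in all cannot be told from such samples. The marker levels differed by line. The mean of the epithelial markers was 4.998 to 5.28 in shTR1/shSep15 cells, 4.12 to 4.32 in shSep15 cells, 4.66 to 5.495 in shTR1 cells and 4.81 to 5.39 in control cells, and that of the fibroblast markers 6.55 to 7.42, 5.66 to 6.24, 5.89 to 7.36 and 6.33 to 7.17 in the same order of lines. Both were lower on every shSep15 array than on every shTR1/shSep15 and control array, and their part in the results that involve shSep15 cells was not tested. Differences of single genes and list medians that moved by over 1.5 times without control replicate 2 are given with and without it.

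The arrays showed no change of the 10 genes that passed the test in any comparison of lines, while Pdk1 and Bnip3 had their highest levels in shTR1/shSep15 cells. Calls among other glycolysis and pathway genes are given further below. With limma over all 45037 probe sets and a threshold of 0.05 on the Benjamini-Hochberg adjusted p, 0 of the 23 probe sets were called in shSep15 against control, where 1.97% of all probe sets were. The count was also 0 in shTR1 against control (0.18% of all), in shTR1/shSep15 against control (0.0244%), in shTR1/shSep15 against shSep15 (2.66%) and in shTR1/shSep15 against shTR1 (0.0733%). The test of non-additivity, which asks whether the effect of both hairpins differs from the sum of the effects of each, called 0 of 23 against 2.85% of all. At an unadjusted p under 0.05, 1 of the 23 was higher and 1 lower in shSep15 against control, where 7.91% of all probe sets were higher and 4.75% lower. In shTR1 against control 0 were higher and 1 lower, with 6.98% and 4.79% of all. In shTR1/shSep15 against control 4 were higher and 1 lower, with 4.52% and 3.61% of all. Against shSep15 cells 2 were higher and 1 lower, with 5.6% and 7.72% of all, and against shTR1 cells 4 were higher and 0 lower, with 4.03% and 6.39% of all. For non-additivity 2 were above and 2 below 0, with 6.51% and 9.49% of all. The 4 higher probe sets belong to Pdk1 (3) and Bnip3 against control, and to Pdk1 (2), Bnip3 and Pfkp against shTR1 cells. The comparisons share arrays, so their counts are not independent of each other.

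Each gene is described by the probe set with the highest mean, called its main probe set, and by its others where they differ. By main probe sets 7 of 10 genes had their highest line mean in shTR1/shSep15 cells, where 28.9% of all genes did. Differences of shTR1/shSep15 from control were above 0 in 8 of 10, with a median of 0.23 on the log2 scale, against 52.9% of all genes and a median of 0.01. In shSep15 and in shTR1 against control 5 of 10 were higher, with medians of -0.01 and 0.02. Of all genes 46.3% and 45.8% were higher there, with medians of -0.02 and -0.03. Without control replicate 2 the median was 0.30 for shTR1/shSep15, with 7 of 10 higher, 0.06 for shSep15, with 6 of 10, and 0.08 for shTR1, with 7 of 10. Over all probe sets that fit gave medians of -0.01 for shTR1/shSep15, -0.02 for shSep15 and -0.03 for shTR1. The shares of all genes that were higher in that fit are not given here. The arrays of neighbouring lines overlapped in each of these orders. The differences of shTR1/shSep15 from control were largest in size for Pdk1 and Bnip3, which also had the widest intervals. Pdk1 and Pfkp had the largest in shSep15 against control (0.78 and 0.67) and in shTR1 against control (0.52 and 0.51).

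**Figure D1:**
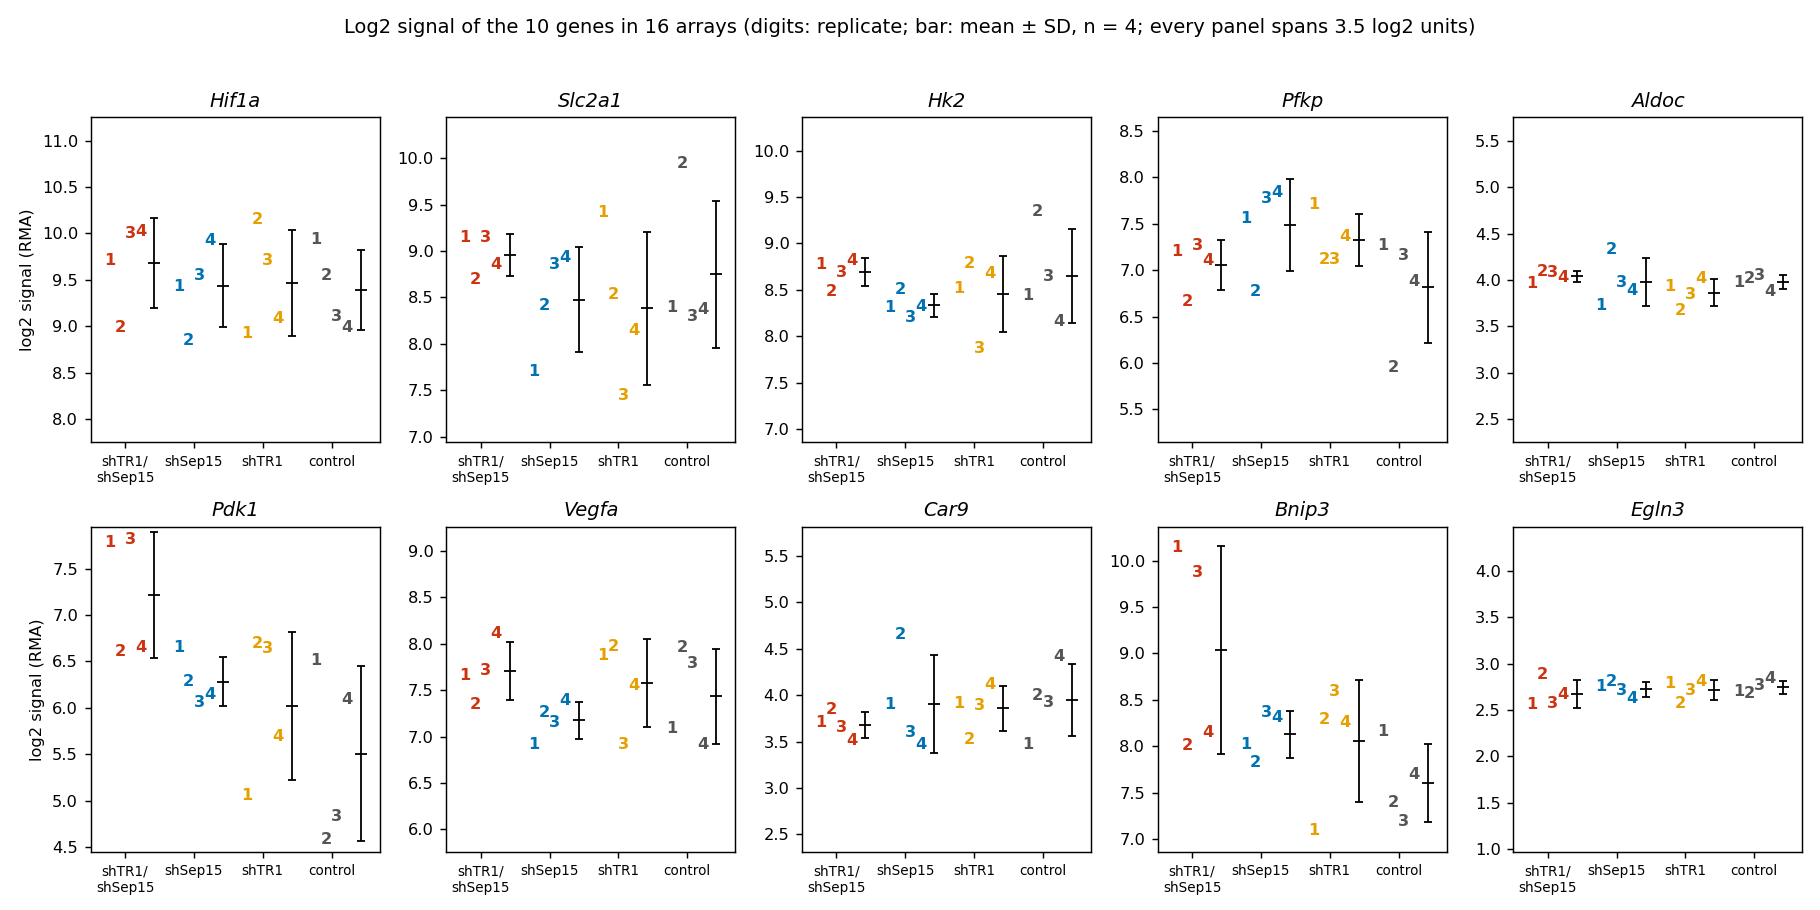
Log2 signal (vertical axis) of the 10 genes at their main probe sets in shTR1/shSep15, shSep15, shTR1 and control cells; each digit is 1 array and its replicate number, and the bar is the mean ± SD of 4 arrays. In shTR1/shSep15 cells replicates 1 and 3 stand at 10.14 and 9.87 for Bnip3 and replicates 2 and 4 at 8.004 and 8.15, and control replicate 2 is the highest array for Slc2a1 and Hk2 and the lowest for Pfkp and Pdk1.

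Pdk1 and Bnip3 act on mitochondria. Pdk1 encodes a kinase that switches off pyruvate dehydrogenase and so keeps pyruvate from the citric acid cycle. Bnip3 encodes a protein of the outer mitochondrial membrane that marks mitochondria for autophagy. Both are well-known targets of HIF-1.

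Pdk1 had log2 signals of 7.78, 6.61, 7.81 and 6.65 in shTR1/shSep15 cells, 6.65, 6.28, 6.06 and 6.14 in shSep15 cells, 5.05, 6.70, 6.64 and 5.69 in shTR1 cells and 6.51, 4.58, 4.83 and 6.09 in control cells. All 4 shTR1/shSep15 arrays lay above all 4 control arrays, by 0.09 at the nearest, while the other lines overlapped each other. The mean was 7.21 ± 0.68 in shTR1/shSep15 cells and 5.51 ± 0.94 in control cells (SD, n = 4 each), a log2 difference of 1.71 (95% confidence interval 0.72 to 2.70) or 3.26-fold. It missed the threshold over all probe sets (limma, adjusted p = 0.334), and the exact two-sided permutation test gave p = 0.0286, the smallest that 4 against 4 allows and 1 of 50 such tests over the 10 genes. Every shTR1/shSep15 array lay above every control array at 2 of the 23 probe sets, both of Pdk1, and at 3.12% of all probe sets. Against shTR1 cells the difference was 1.19 (interval 0.20 to 2.18, adjusted p = 0.377 from limma), and against shSep15 cells it was 0.93 (interval -0.06 to 1.92). The line order was shTR1/shSep15, shSep15, shTR1 and control, and the intervals of shSep15 and shTR1 against control, -0.21 to 1.76 and -0.47 to 1.504, each held 0. Without control replicate 2 these 2 differences were 0.47 and 0.21, against 0.78 and 0.52 with it.

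The other probe sets of Pdk1 differed in brightness. Probe set 1423748_at read 7.0, 6.22, 6.93 and 6.27 in shTR1/shSep15 cells, 5.86, 5.96, 5.57 and 5.70 in shSep15 cells, 5.34, 6.25, 5.84 and 5.35 in shTR1 cells and 5.97, 5.09, 5.65 and 5.88 in control cells. Here shTR1/shSep15 arrays lay above every control and every shSep15 array, and the last held for 2 of the 23 probe sets (one of Pdk1 and one of Vegfa) and 7.11% of all. The differences were 0.95 against control (adjusted p = 0.302 from limma), 0.83 against shSep15 (adjusted p = 0.10) and 0.91 against shTR1 cells (adjusted p = 0.191). The difference from shSep15 cells passed the threshold when control replicate 2 was left out of the shared spread (adjusted p = 0.0451) and when only the arrays of the 2 lines were fitted (adjusted p = 0.0316). Probe set 1423747_a_at gave 1.42 against control (interval 0.28 to 2.55), with overlapping arrays, and 1434974_at was near 2.6 in every line.

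Bnip3 had log2 signals of 10.14, 8.004, 9.87 and 8.15 in shTR1/shSep15 cells, 8.01, 7.83, 8.36 and 8.31 in shSep15 cells, 7.09, 8.29, 8.59 and 8.25 in shTR1 cells and 8.15, 7.40, 7.18 and 7.70 in control cells. In shTR1/shSep15 cells replicates 1 and 3 were the highest of all 16 arrays, and replicates 2 and 4 lay among the shSep15 and shTR1 arrays and did not clear the highest control array. The mean was 9.04 ± 1.12 in shTR1/shSep15 cells and 7.61 ± 0.42 in control cells (SD, n = 4 each), a log2 difference of 1.43 (95% confidence interval 0.47 to 2.39) or 2.70-fold, with an adjusted p of 0.418 from limma. Without shTR1/shSep15 replicate 1 the difference was 1.07. The differences of shTR1/shSep15 cells were 0.98 from shTR1 cells (interval 0.02 to 1.94) and 0.91 from shSep15 cells (interval -0.05 to 1.87). The SD of Bnip3 within shTR1/shSep15 cells, 1.12, was reached by 0.044% of all genes in that line, whose median SD was 0.17, and that of Pdk1, 0.68, by 0.792%.

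**Figure D2:**
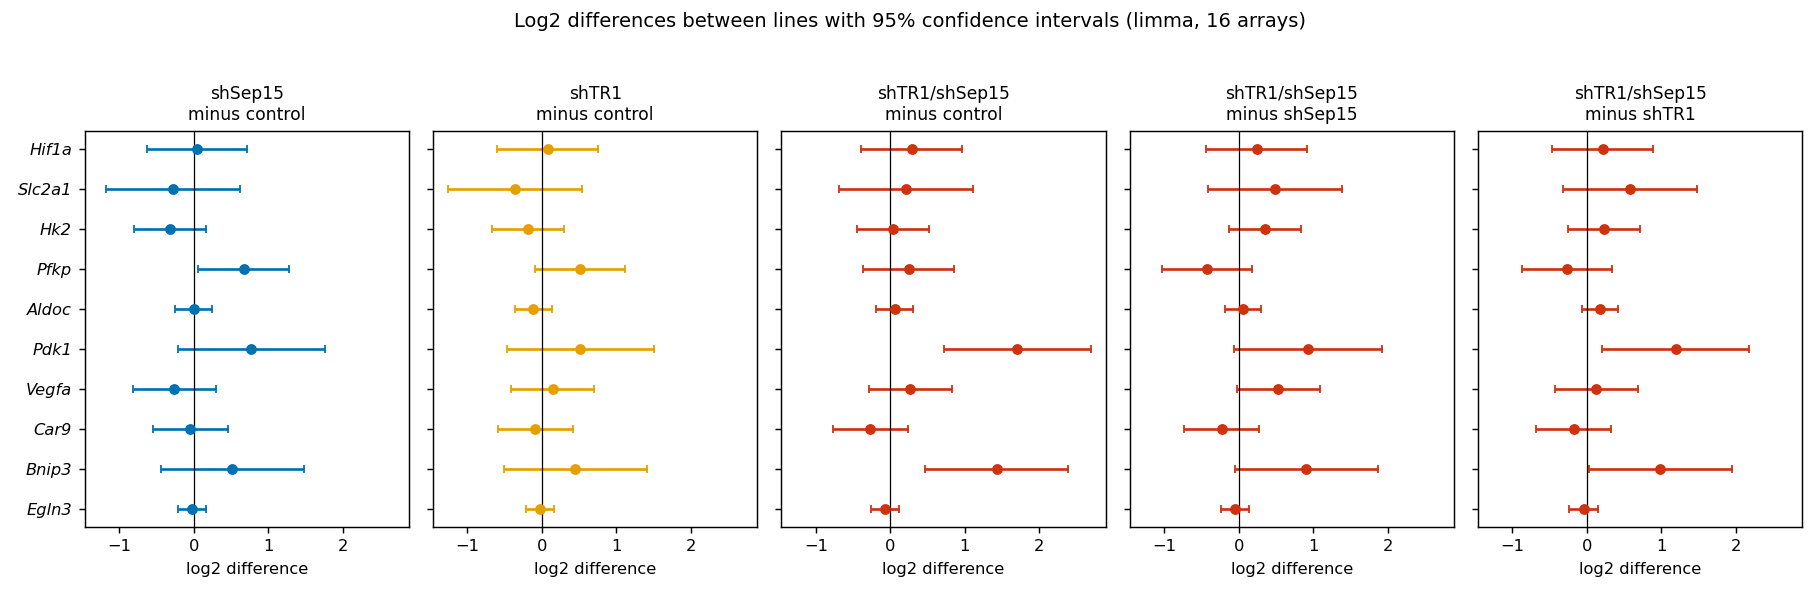
Log2 differences at the main probe sets (horizontal axis, points) with 95% confidence intervals (bars) for 5 comparisons of lines, the first-named line minus the second. The intervals of Pdk1 and Bnip3 clear 0 in shTR1/shSep15 minus control and minus shTR1, and that of Pfkp in shSep15 minus control, none of which passed the threshold after adjustment.

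Hif1a and Egln3 belong to the sensor itself. Hif1a had log2 signals of 9.71, 8.99, 10.003 and 10.02 in shTR1/shSep15 cells, 9.42, 8.85, 9.55 and 9.92 in shSep15 cells, 8.92, 10.15, 9.71 and 9.09 in shTR1 cells and 9.93, 9.54, 9.10 and 8.99 in control cells. The 4 lines overlapped throughout, with line means between 9.39 and 9.68. In shTR1/shSep15 against control the difference was 0.29 (95% confidence interval -0.39 to 0.96). Of its other probe sets, 1416035_at read 5.52 to 7.35 over the 16 arrays, again with overlapping lines. The remaining 2, at 2.69 to 4.50, were dimmer than the median of all probe sets, and 1448183_a_at there was 0.38 lower in shTR1 and 0.37 lower in shTR1/shSep15 than in control cells, with control replicate 2 highest at 4.50 and adjusted p-values of 0.408 and 0.601 from limma. Without that array both differences were -0.19. Egln3, whose product hydroxylates the HIF-1 α subunit and whose mRNA rises in hypoxia in many cells, was at 2.56 to 2.89 on all 16 arrays at its main probe set and at 2.43 to 2.90 at the other. Both lie below the median of all probe set means.

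Slc2a1, Hk2, Pfkp and Aldoc stand at the entry of glycolysis. Slc2a1 encodes the glucose transporter GLUT1 and had log2 signals of 9.15, 8.69, 9.15 and 8.86 in shTR1/shSep15 cells, 7.70, 8.41, 8.85 and 8.93 in shSep15 cells, 9.41, 8.53, 7.44 and 8.14 in shTR1 cells and 8.39, 9.94, 8.30 and 8.37 in control cells. Control replicate 2 was 1.55 above the next control array, and the shSep15 and shTR1 arrays were widely spread, while the shTR1/shSep15 arrays lay within 8.69 to 9.15. Control replicate 2 was the highest of the 16 arrays at all 3 probe sets of Slc2a1, with 9.94, 9.62 and 8.81. In shTR1/shSep15 against control the difference was 0.21 (95% confidence interval -0.68 to 1.11) with control replicate 2 and 0.61 without it (SE 0.37), against shSep15 0.49 (interval -0.41 to 1.39) and against shTR1 cells 0.58 (interval -0.32 to 1.48).

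Hk2 encodes hexokinase 2, which traps glucose as glucose 6-phosphate, and has 1 probe set. Its log2 signals were 8.77, 8.48, 8.69 and 8.82 in shTR1/shSep15 cells, 8.31, 8.499, 8.20 and 8.32 in shSep15 cells, 8.52, 8.78, 7.87 and 8.68 in shTR1 cells and 8.44, 9.35, 8.65 and 8.16 in control cells. Control replicate 2 was again the highest of the 16 arrays, and the other 15 lay between 7.87 and 8.82. The shSep15 arrays were the tightest, and all but 1 of them lay below every shTR1/shSep15 array, with a difference of 0.36 (95% confidence interval -0.12 to 0.84) for shTR1/shSep15 against shSep15 and of 0.04 (interval -0.44 to 0.52) against control. Without control replicate 2 the last was 0.27 (SE 0.19).

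Pfkp, the platelet form of phosphofructokinase, which commits sugar to glycolysis, had log2 signals of 7.20, 6.67, 7.27 and 7.11 in shTR1/shSep15 cells, 7.56, 6.77, 7.77 and 7.84 in shSep15 cells, 7.71, 7.12, 7.12 and 7.36 in shTR1 cells and 7.27, 5.95, 7.16 and 6.87 in control cells. Its mean was highest in shSep15 cells, 7.49 ± 0.49, and lowest in control cells, 6.81 ± 0.60 (SD, n = 4 each). Replicate 2 was the lowest array of each line, in shTR1 cells level with replicate 3. The difference of shSep15 from control was 0.67 (95% confidence interval 0.06 to 1.28, adjusted p = 0.328 from limma) and was 0.38 without control replicate 2. Probe set 1430634_a_at gave -0.08 for the same comparison, so that the probe sets of Pfkp disagree in direction. Aldoc, the brain form of aldolase, was dim, at 3.67 to 4.33 at its main probe set, with line means within 0.17 of each other.

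Vegfa and Car9 act outside the cell. Vegfa encodes the growth factor that draws in blood vessels and had log2 signals of 7.66, 7.35, 7.71 and 8.11 in shTR1/shSep15 cells, 6.91, 7.26, 7.15 and 7.39 in shSep15 cells, 7.87, 7.97, 6.92 and 7.56 in shTR1 cells and 7.08, 7.96, 7.79 and 6.92 in control cells. The shSep15 arrays were the lowest group and the lines overlapped. Its other probe set, 1451959_a_at, read 7.53, 7.15, 7.21 and 7.58 in shTR1/shSep15 cells, 6.52, 7.13, 6.44 and 6.78 in shSep15 cells, 7.26, 7.08, 6.85 and 6.86 in shTR1 cells and 6.91, 7.55, 7.24 and 6.89 in control cells. There every shTR1/shSep15 array was above every shSep15 array, if only by 0.01 at the nearest. The difference of shTR1/shSep15 from shSep15 cells was 0.65 (95% confidence interval 0.26 to 1.03, adjusted p = 0.0762 from limma) at this probe set and 0.53 (interval -0.03 to 1.09) at the main one. It passed the threshold without control replicate 2 (adjusted p = 0.0349), without shSep15 replicate 2 (adjusted p = 0.0346) and with the arrays of the 2 lines alone (adjusted p = 0.0481). At an unadjusted level 1451959_a_at was also lower in shSep15 than in control cells, by 0.43 (adjusted p = 0.323).

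Car9, the membrane-bound carbonic anhydrase that exports acid from hypoxic tumor cells and is among the genes most tied to HIF-1, was dim in every line. Its log2 signals were 3.71, 3.85, 3.65 and 3.51 in shTR1/shSep15 cells, 3.90, 4.66, 3.60 and 3.47 in shSep15 cells, 3.91, 3.53, 3.89 and 4.12 in shTR1 cells and 3.47, 4.00, 3.92 and 4.41 in control cells. The lines overlapped, and the mean in shTR1/shSep15 cells, 3.68 ± 0.14, was below that in control cells, 3.95 ± 0.39 (SD, n = 4 each), with a difference of -0.27 (95% confidence interval -0.77 to 0.24). Car9 thus had its lowest line mean in shTR1/shSep15 cells, the line in which Pdk1 and Bnip3 had their highest.

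Over the 16 arrays 2 sets of the brighter genes moved together. Bnip3 and Pdk1 had Pearson's r = 0.871, and Hk2 and Vegfa 0.818, Slc2a1 and Hk2 0.685 and Slc2a1 and Vegfa 0.646. Pfkp belonged to neither, with r of 0.197 and 0.187 with Pdk1 and Bnip3 and of -0.521, -0.241 and -0.197 with Hk2, Slc2a1 and Vegfa. Across the sets r ran from -0.217 to 0.0294 between Slc2a1, Hk2 or Vegfa and Bnip3 or Pdk1. These are descriptions over 16 arrays that share 4 lines. Single arrays weigh in them: shTR1/shSep15 replicates 1 and 3 hold the top of Bnip3 and Pdk1, and control replicate 2 holds the top of Slc2a1 and Hk2 and the bottom of Pdk1. Hif1a went more with Bnip3 (0.542) and Pdk1 (0.494) than with Slc2a1 (0.108) or Hk2 (0.151).

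**Figure D3:**
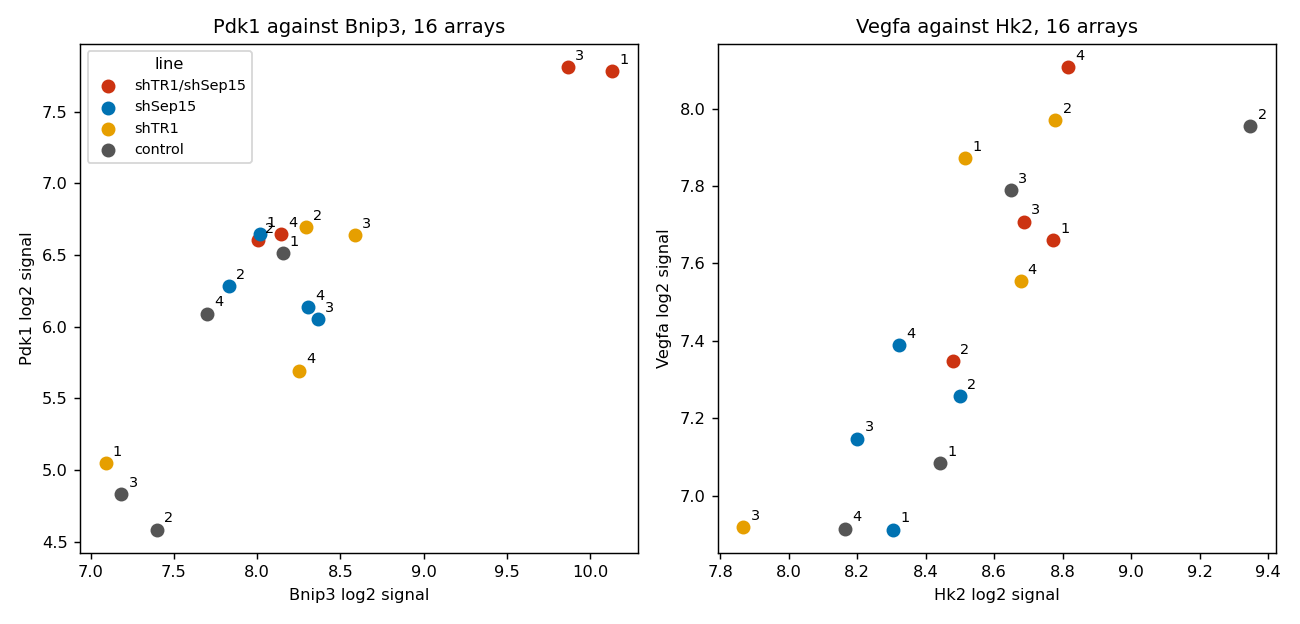
Left, Pdk1 against Bnip3, and right, Vegfa against Hk2, log2 signal on both axes; each point is 1 array, coloured by line, with its replicate number. Pdk1 and Bnip3 rise together (r = 0.871, 16 arrays) with shTR1/shSep15 replicates 1 and 3 at the top right, and Vegfa and Hk2 rise together (r = 0.818) with those 2 arrays in the middle.

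Among all other genes, those whose pattern over the 16 arrays was most like that of the 3 genes with the widest range of line means were as follows. For Bnip3 the first of 18192 genes was Pdk1, followed by D030056L22Rik (0.786) and Ube2q2 (0.785). Without the 2 arrays farthest from the Bnip3 median r was 0.783 with Pdk1, 0.842 with D030056L22Rik and 0.859 with Ube2q2, so that the first place of Pdk1 rests on those arrays. For Pdk1 the first were Nop9 (0.919), Rrm1 (0.912) and Me2 (0.901), and for Pfkp they were Kmt2d (0.958), Nedd8 (0.946) and Spcs1 (0.939).

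The rest of the glycolysis enzymes, 15 of 18 listed genes (Gpi1, Gapdh and Eno1 were not analysed here), mostly had positive differences in the comparisons of shTR1/shSep15 cells. In shTR1/shSep15 against control 0 of 15 passed the test. There 13 of 15 were higher, against 52.9% of all genes, and the median log2 difference was 0.51, against 0.01 over all genes. At an unadjusted p under 0.05, 8 of 15 (53.3%) were higher, against 6.2% of all genes. Pkm and Ldha are shown as examples and were picked after their values were seen. Pkm, the pyruvate kinase of many tissues and tumors, had log2 signals of 11.75, 11.85, 11.78 and 11.67 in shTR1/shSep15 cells, 10.71, 10.86, 11.00 and 11.10 in shSep15 cells, 11.00, 11.29, 11.06 and 10.45 in shTR1 cells and 11.04, 8.84, 10.84 and 11.08 in control cells. All shTR1/shSep15 arrays lay above the arrays of the other lines, and control replicate 2 lay far below. The difference from control was 1.31 (95% confidence interval 0.51 to 2.11, adjusted p = 0.362 from limma), and without control replicate 2 it was 0.78 (SE 0.16, adjusted p = 0.221 from limma). Ldha, which turns pyruvate into lactate, had log2 signals of 13.11, 12.74, 12.97 and 12.50 in shTR1/shSep15 cells, 12.59, 12.51, 12.34 and 12.38 in shSep15 cells, 11.73, 12.67, 12.52 and 12.06 in shTR1 cells and 12.61, 10.69, 12.24 and 12.59 in control cells. Its control replicate 2 was more than 1 log2 unit below every other array.

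Control replicate 2 was the lowest of the 16 arrays in 8 of these 15 genes (Hk1, Pfkm, Aldoa, Tpi1, Pgk1, Pgam1, Pkm and Ldha). Without it the median of shTR1/shSep15 against control was 0.28, with 11 of 15 higher and 4 of 15 at an unadjusted p under 0.05. Over all 45037 probe sets that fit gave a median of -0.01, with 2472 at an unadjusted p under 0.05 in either direction. The share of all genes that were higher without control replicate 2 is not given here. The same step turned the medians of the single knockdowns, to -0.07 without it in shSep15 against control, where it was 0.13 with it, and to -0.07 in shTR1 against control, where it was 0.20. The comparisons of shTR1/shSep15 with the single knockdowns hold no control array, and their medians were 0.36 against shSep15 and 0.33 against shTR1 cells, with 12 and 13 of 15 higher. Over all genes the medians were 0.03 and 0.05, with 56.7% and 59.8% higher. Against shSep15 cells Pfkfb4, which makes the activator of phosphofructokinase, rose by 1.07 (adjusted p = 0.0165 from limma) and Pfkl, the liver form of phosphofructokinase, by 0.60 (adjusted p = 0.0449). In that comparison 3.5% of all genes were called. Pfkl lost this call in 11 of the 16 fits that leave out 1 array, and Pfkfb4 in 3. When control replicate 2 was left out of the shared spread, Pkm (0.85, adjusted p = 0.0049) and Tpi1 (0.79, adjusted p = 0.00692) were called as well against shSep15 cells, and Pkm against shTR1 cells (0.82, adjusted p = 0.0362). Without it Pkm and Tpi1 were also called for non-additivity. Leaving it out raised the calls over all 45037 probe sets from 1196 to 2239 in shTR1/shSep15 against shSep15 cells. The rise was from 33 to 176 against shTR1 cells and from 1282 to 2340 for non-additivity.

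Pfkfb4 also fell in shSep15 cells, to 5.58, 5.56, 5.61 and 5.88, against 6.90, 7.13, 6.26 and 6.11 in control cells. Every shSep15 array lay below every control array. The log2 difference was -0.94 (SE 0.22, adjusted p = 0.0393 from limma), and 9 of 16 fits without 1 array lost this call, among them that without control replicate 2 (adjusted p = 0.0731). It was also lost with the arrays of the 2 lines alone (adjusted p = 0.139), after median centring (0.0722) and with an intensity trend (0.0532). The epithelial marker mean was lower in shSep15 cells as well, 4.12 to 4.32 against 4.81 to 5.39 in control cells. Pfkfb4 was the 1 glycolysis gene called against control in any line. Of all genes 2.72% were called against control in shSep15, 0.275% in shTR1 and 0.0385% in shTR1/shSep15 cells.

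**Figure D4:**
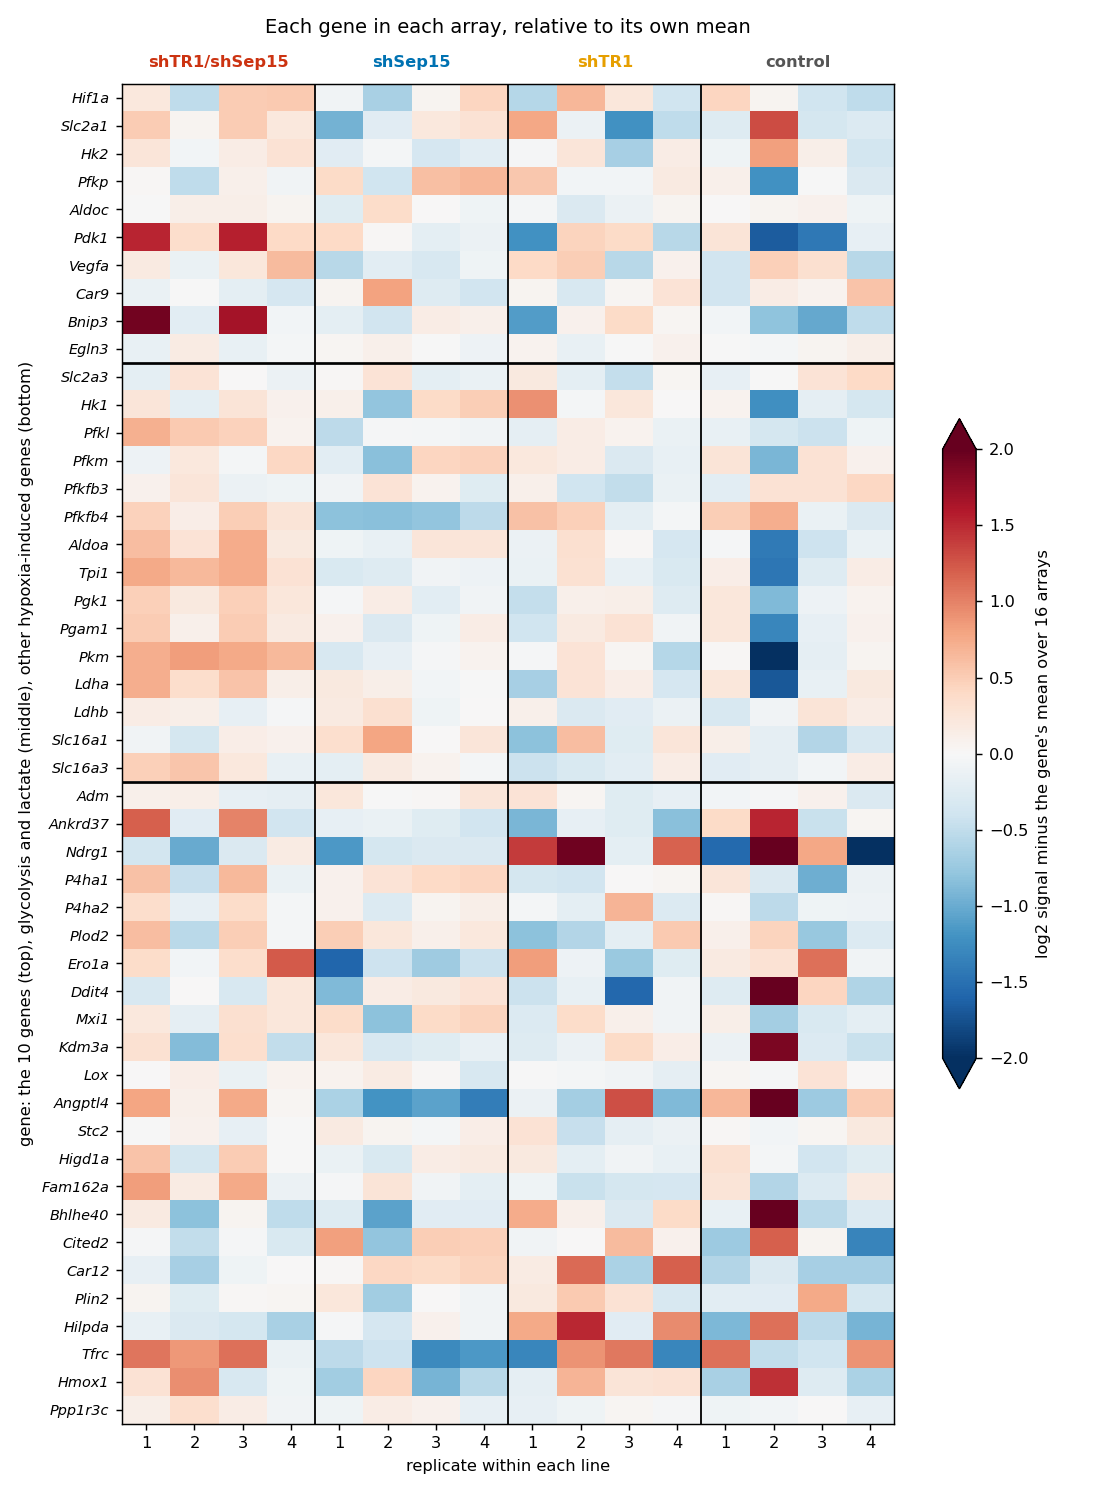
Log2 signal of each gene minus its own mean over the 16 arrays (colour, red high and blue low), with genes down the page in 3 blocks (the 10 genes, glycolysis and lactate, other hypoxia-induced genes) and arrays across by line and replicate. Control replicate 2 is blue for Pkm, Ldha, Tpi1 and Aldoa and red for Ddit4, Bhlhe40, Kdm3a and Angptl4, and shTR1/shSep15 replicates 1 and 3 are red for Bnip3, Pdk1, Ankrd37 and Fam162a.

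Of 23 measured other hypoxia-induced genes, 0 passed the test in any of the 6 comparisons, against shares of all genes of 2.72% in shSep15, 0.275% in shTR1 and 0.0385% in shTR1/shSep15 against control, 3.5% and 0.11% in shTR1/shSep15 against shSep15 and shTR1, and 3.8% for non-additivity. Without control replicate 2, Hilpda was called for non-additivity, in a fit that called 2340 of all 45037 probe sets against 1282 with that array. Bnip3l was not analysed here. In shTR1/shSep15 against control 13 of 23 were higher with a median of 0.04, and without control replicate 2 these were 20 of 23 and 0.27. With all 16 arrays 52.9% of all genes were higher, with a median of 0.01. Over all probe sets the fit without control replicate 2 gave a median of -0.01. The share of all genes that were higher in that fit is not given here, so 20 of 23 has no matched share beside it. Single genes of this list are named for their arrays and were picked after their values were seen. Control replicate 2 was the highest of 16 in 8 of the 23, among them Ddit4, a brake on mTOR signalling, with log2 signals of 7.59, 11.13, 8.28 and 7.24 in control cells, and Kdm3a, a histone demethylase, with 8.60, 10.61, 8.45 and 8.27. Within shTR1/shSep15 cells P4ha1, a collagen prolyl hydroxylase, read 8.32, 7.27, 8.39 and 7.60, Fam162a 10.93, 10.25, 10.86 and 9.98 and Ankrd37 5.74, 4.31, 5.54 and 4.16. In these genes, as in Bnip3 and Pdk1, replicates 1 and 3 were the higher arrays of that line. Those replicates were the 2 highest of all 16 arrays in 5 of 15 glycolysis genes (Aldoa, Tpi1, Pgk1, Pgam1 and Ldha) and in 3 of 23 other hypoxia-induced genes (P4ha1, Higd1a and Fam162a), against 0.77% of all genes. They were also the 2 highest in 2 of the 10 genes, Pdk1 and Bnip3. The replicates were picked out by those 2 genes, so that count is fixed by the choice and is no test.

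The oxygen-sensing machinery, 13 genes, had 2 calls in shSep15 against control, Arnt and Elob, where 2.72% of all genes were called, and none in shTR1 or shTR1/shSep15 against control. The epithelial marker mean differed between the same lines, with 4.12 to 4.32 in shSep15 cells and 4.81 to 5.39 in control cells. Arnt encodes the constant partner of the HIF α subunits. Its log2 signals were 6.67, 6.16, 6.98 and 7.09 in shTR1/shSep15 cells, 7.67, 8.10, 8.61 and 8.56 in shSep15 cells and 7.20, 7.59, 6.93 and 6.31 in control cells. The shSep15 arrays lay above all arrays of the other two. The log2 difference of shSep15 from control was 1.23 (SE 0.27, adjusted p = 0.0316 from limma), and that of shTR1/shSep15 from shSep15 was -1.51 (adjusted p = 0.00822). The call against control was lost in 4 of 16 fits without 1 array (adjusted p up to 0.118), with the replicate as a block (0.0664) and with the arrays of the 2 lines alone (0.144), while that against shSep15 held in all 16. Arnt is on chromosome 3, as is Selenof, and 113 of the 913 genes there rose in shSep15 against control, against 225 of 17280 elsewhere. In shTR1/shSep15 against shSep15, 122 of the 913 fell and 3 rose, against 224 and 288 of 17280 elsewhere. The part of this in the Arnt results was not tested. Of its other probe sets, 3 gave 0.34, 0.35 and 0.77 for shSep15 against control, none past the threshold with all 16 arrays and the last past it without control replicate 2 (0.95, adjusted p = 0.0104 from limma), and 1449696_at gave -0.30. The fit without control replicate 2 called 1176 of all 45037 probe sets, against 885 with that array. Elob, a subunit of the ubiquitin ligase that removes HIF α, was 0.55 higher in shSep15 than in control cells (SE 0.12, adjusted p = 0.0350 from limma), with 11.79, 11.44, 11.83 and 11.76 in shSep15 cells and 11.26, 10.83, 11.28 and 11.28 in control cells. Control replicate 2 was its lowest array, and without it the difference was 0.43 with an adjusted p of 0.0609 from limma. In all, 8 of 16 fits without 1 array lost the call (adjusted p up to 0.125), as did quantile normalization (0.0782) and the arrays of the 2 lines alone (0.171). Of 26 alternatives, which include the other probe set of Elob, 1436949_a_at, 14 gave the same result and 12 a weaker one.

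Of 9 genes of pyruvate dehydrogenase, its kinases and phosphatases, 0 passed the test in any comparison. Pdk3, the sister kinase of Pdk1 (picked after its values were seen), read 8.56, 8.40, 8.59 and 8.66 in shTR1/shSep15 cells and 8.35, 6.71, 7.95 and 7.99 in control cells. These arrays did not overlap, with a difference of 0.80 (95% confidence interval 0.20 to 1.40, adjusted p = 0.481 from limma), with control replicate 2 the lowest array and a difference of 0.46 without it (SE 0.19). Pdk2 and Pdk4 lay below the median of all probe set means. Of 8 other genes of the VEGF family and its receptors, Nrp2, a coreceptor of VEGF, rose in shTR1/shSep15 against shSep15 cells, to 8.97, 8.82, 8.99 and 8.82, against 6.94, 6.31, 7.34 and 7.21 in shSep15 cells. The log2 difference was 1.95 (SE 0.29, adjusted p = 0.00228 from limma), and it kept its call in each fit without 1 array. Nrp2 was also lower in shSep15 than in control cells, by 1.14 on the log2 scale, which missed the threshold (adjusted p = 0.0598) and passed it without control replicate 2 (adjusted p = 0.0163). The same step raised the calls over all 45037 probe sets from 885 to 1176. All 8 VEGF family and receptor genes had a positive non-additivity, as did 58.1% of all genes. Their median was 0.32 against 0.07 over all genes, and 0 of 8 passed that test. Without control replicate 2 Nrp2 did (1.76, adjusted p = 0.0156 from limma), in a fit that called 2340 of all 45037 probe sets against 1282 with that array. The fibroblast marker mean was lower in shSep15 cells too, 6.55 to 7.42 in shTR1/shSep15 cells against 5.66 to 6.24 in shSep15 cells.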

How the data were processed

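Gene expression was measured on Affymetrix mouse genome arrays from 4 mRNA samples of each of 4 CT26 lines. The authors processed the arrays by Robust Multi-Array Analysis (RMA, version not given in the sources used here), and the deposited values are log2 signals per probe set. Array medians lay between 4.45 and 4.58, and the number of arrays limits the precision. Groups were taken from the labels. Of 45101 probe sets, 64 manufacturer controls were left out of the tests. Symbols came from the platform annotation, updated through the gene number for 34741 of the 34945 probe sets with 1 symbol. The 932 probe sets with several symbols and 9160 with none were named for no gene. Line means were fitted with limma 3.58.1 in R 4.3.3 (lmFit and eBayes, 16 arrays, 12 residual and 2.58 prior degrees of freedom), and p-values were adjusted by Benjamini-Hochberg over 45037 probe sets at a threshold of 0.05. Single genes were also compared by exact two-sided permutation tests. The fit was tested on simulated data.

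The 10 genes and the lists were chosen with earlier results of these data known. Named besides them are list genes past the threshold (at most 5 a comparison) and the 3 genes most like each of the 3 members with the widest range of line means, and genes named otherwise are marked. Alternatives were an intensity trend, bright probe sets only, arrays of the compared lines only, median centring, quantile normalization, a replicate block, each array left out, shTR1 replicates 2 and 4 left out, the ANOVA of the methods and other probe sets.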

Additional observations from a re-analysis of the deposited data

Results flagged for a closer look

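Slc2a1, the glucose transporter GLUT1, had a control array far from the other 3 at each of its probe sets: control replicate 2 read 9.94 at 1434773_a_at, 9.62 at 1426599_a_at and 8.81 at 1426600_at. Egln3 had a low array in shSep15 cells at 1418648_at, replicate 1 at 2.43, with all of its signals below the median of probe set means. These are 4 of 92 groups of 4 arrays looked at, and chance flags about 5% of groups. The non-additivity of Arnt was -1.82 on the log2 scale (adjusted p = 0.0215 from limma), and that of Elob was -0.771 (adjusted p = 0.0301 from limma). Arnt is on chromosome 3, where 109 of 913 genes were called below 0 for non-additivity and 0 above it. Elsewhere these were 392 and 191 of 17280. Fits without 1 array lost the call of Arnt in 2 of 16 cases (adjusted p up to 0.0548) and that of Elob in 9 of 16 (adjusted p up to 0.072), and both were lost without shTR1 replicates 2 and 4 (0.117 and 0.0537). The causes of these values were not tested.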

How the results depend on the processing

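No member probe set passed the threshold under any alternative except in shTR1/shSep15 against shSep15, where 2 did with the arrays of the 2 lines alone and 0 to 2 when each array was left out, and in the unadjusted ANOVA of the methods, which called 2, 1, 4, 3, 4 and 2 in shSep15, shTR1 and shTR1/shSep15 against control, shTR1/shSep15 against shSep15 and against shTR1, and non-additivity. Of all 45037 probe sets the arrays of the 2 lines alone called 3747 in shTR1/shSep15 against shSep15, and the fits without 1 array 613 to 2239. In the same order of comparisons the unadjusted ANOVA called 5483, 5037, 3368, 5665, 4335 and 6923 of all 45037. For the 68 other pathway genes that ANOVA called 9, 8, 11, 12, 9 and 11, against 3, 0, 0, 4, 0 and 2 in the fit reported. With each array left out those counts ran from 0 to 3, 0 to 1, 0 to 0, 2 to 6, 0 to 1 and 0 to 6. Over all probe sets the calls ran from 437 to 1176, 25 to 211, 8 to 24, 613 to 2239, 5 to 250 and 656 to 2340. With arrays of the 2 lines alone the pathway counts were 1 in shSep15 against control and 10 in shTR1/shSep15 against shSep15, with 345 and 3747 of all 45037 probe sets. The ANOVA with Benjamini-Hochberg adjustment called 0 pathway genes in shSep15 against control and 1 for non-additivity, which had 4 with bright probe sets only and 0 without shTR1 replicates 2 and 4. Of all 45037 probe sets this ANOVA called 556 and 744. For non-additivity the bright probe sets gave 1425 of 22518, and the fit without shTR1 replicates 2 and 4 gave 519 of 45037. The causes were not tested. Other probe sets gave the opposite sign for Pfkp in shSep15 against control (-0.0758) and non-additivity (0.38), for Pdk1 in shTR1/shSep15 against control (-0.007) and for Arnt in shSep15 against control (-0.30) and non-additivity (0.30). That of Pdk1 was 1434974_at, which was dimmer than the median of probe set means. The brighter 1423747_a_at and 1423748_at of Pdk1 gave 1.42 and 0.95.

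With each array left out Pdk1 in shTR1/shSep15 against control ran from 1.40 to 2.04, Bnip3 from 1.07 to 1.78 and Pfkp in shSep15 against control from 0.38 to 0.91. Replicate numbers did not pair the arrays: 24 pairs with the same number had a median correlation of -0.04 and 72 others -0.01. With the replicate as a block, 0 member probe sets passed in any comparison, and the pathway counts were 3, 0, 0, 3, 0 and 3. Of all 45037 probe sets that fit called 782, 114, 11, 977, 15 and 1130. Of the 23 member probe sets 9 lay below the median of probe set means, which limits what can be seen for Aldoc, Car9 and Egln3.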
